A study of Homo sapiens with 6 samples.

Results

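The expression of 10 feedback inhibitors of mitogen-activated protein (MAP) kinase signalling was compared between rescues by MYB mutants that cannot carry or cannot bind SUMO, the small ubiquitin-like modifier. They were the MAP kinase phosphatases DUSP1, DUSP2, DUSP4, DUSP5 and DUSP6, the Sprouty proteins SPRY1, SPRY2 and SPRY4, and the Sprouty-related proteins SPRED1 and SPRED2. The members were chosen by name, with earlier results of these data known. Each of the 10 symbols matched 1 Ensembl ID among the 58288 genes of the deposited table. The cells were K562, a human line of erythroleukemia whose growth is driven by the BCR-ABL kinase. Single cell clones stably expressed 3xFLAG-2KR-Myb-HA, in which the lysines that carry SUMO are changed to arginine, or 3xFLAG-ANAA-Myb-HA, in which the motif that binds SUMO is mutated. Both were selected in 200 µg/ml G418 and received the siRNA si2992, which targets endogenous MYB but not the introduced versions, and RNA was taken 24 h later. There were 3 libraries of each rescue, and each mutant was represented by 1 clone, so mutant and clone cannot be told apart. The methods call the libraries biological replicates, and p-values measure only the spread between these cultures of a clone.

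MAP kinase signalling runs from activated receptors or BCR-ABL through the RAS proteins to the RAF, MEK and ERK kinases, and ERK in turn raises the transcripts of proteins that shut it down. DUSP phosphatases remove the activating phosphates from the kinases themselves, while Sprouty and SPRED proteins act higher up, at RAS and RAF. DUSP1, DUSP2, DUSP4 and DUSP5 reside in the nucleus and DUSP6 in the cytoplasm. Because these transcripts are short-lived and follow the activity of the pathway, several of them are used as readouts of ERK output.

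Expression was deposited as FPKM, fragments scaled to the length of the transcript and to the fragments mapped in the library, a scale on which levels of different genes can be set side by side. Per library the FPKM added up to 579920 at least and 633662 at most, and the read depth behind them is unknown from these values. Pearson r on log2(FPKM + 1) lay between 0.983 and 0.989 for pairs of the same rescue. For pairs of different rescues it lay between 0.968 and 0.973, so every pair of the same rescue was closer. Of the refits with 1 library left out, that without the third 2KR-MYB replicate called the most genes, 1139. Of the erythroid markers that K562 should carry, 11 of 12 had a mean of at least 1 FPKM, and their summed level ranged from 1720 to 1850 FPKM with 2KR-MYB and from 1930 to 2360 FPKM with ANAA-MYB. Of 6 monocyte and macrophage markers 2 reached 1 FPKM, with a summed level of 39.8 to 42.5 FPKM against 107 to 109 FPKM. Of 7 lymphoid markers 2 reached it, with 28.5 to 32.8 FPKM against 45.2 to 65.3 FPKM, and CD8A and MS4A1 were listed at 0 in every library. Of 8 megakaryocyte markers 2 reached it, with 5.01 to 6.43 against 7.67 to 8.97 FPKM, and GP9, GP1BB and PF4 were listed at 0. Epithelial markers (4 of 5 reached it, 515 to 606 against 525 to 556 FPKM) and fibroblast markers (2 of 6, 2.49 to 4.31 against 3.08 to 4.47 FPKM) overlapped between the rescues. The part of these marker levels in the results below was not tested. MYB itself stood at 69.0, 61.2 and 67.5 FPKM with 2KR-MYB and at 53.6, 55.3 and 62.0 FPKM with ANAA-MYB (limma adjusted p = 0.062). A value per gene does not separate the introduced MYB from what remained of the endogenous MYB.

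The feedback inhibitors fell into a well expressed and a near-silent group. SPRED2, which binds the RAS regulator neurofibromin and holds down RAF activation, had the highest level in both rescues, with means of 21.1 ± 1.07 FPKM and 20.7 ± 0.438 FPKM (SD, n = 3 each) in the 2KR-MYB and ANAA-MYB rescues. With 2KR-MYB the order below it was DUSP1, SPRY4, SPRED1, DUSP5 and SPRY2. With ANAA-MYB it was SPRY4, SPRED1, DUSP1, DUSP5 and SPRY2, so DUSP1 moved from the place behind SPRED2 to a place behind SPRED1. The library ranges of DUSP1 and SPRY4 overlapped in the 2KR-MYB rescue and those of SPRED1 and DUSP1 in the ANAA-MYB rescue. Among the 6 well expressed members the other neighbours in each order had ranges that lay apart. These 6 were above 1 FPKM in every library. SPRY1, DUSP4, DUSP6 and DUSP2 were under 1 FPKM in every library and did not pass the filter of a mean of at least 1 FPKM, so that 6 of the 10 members were tested with the 12634 genes above it.

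**Figure D1:**
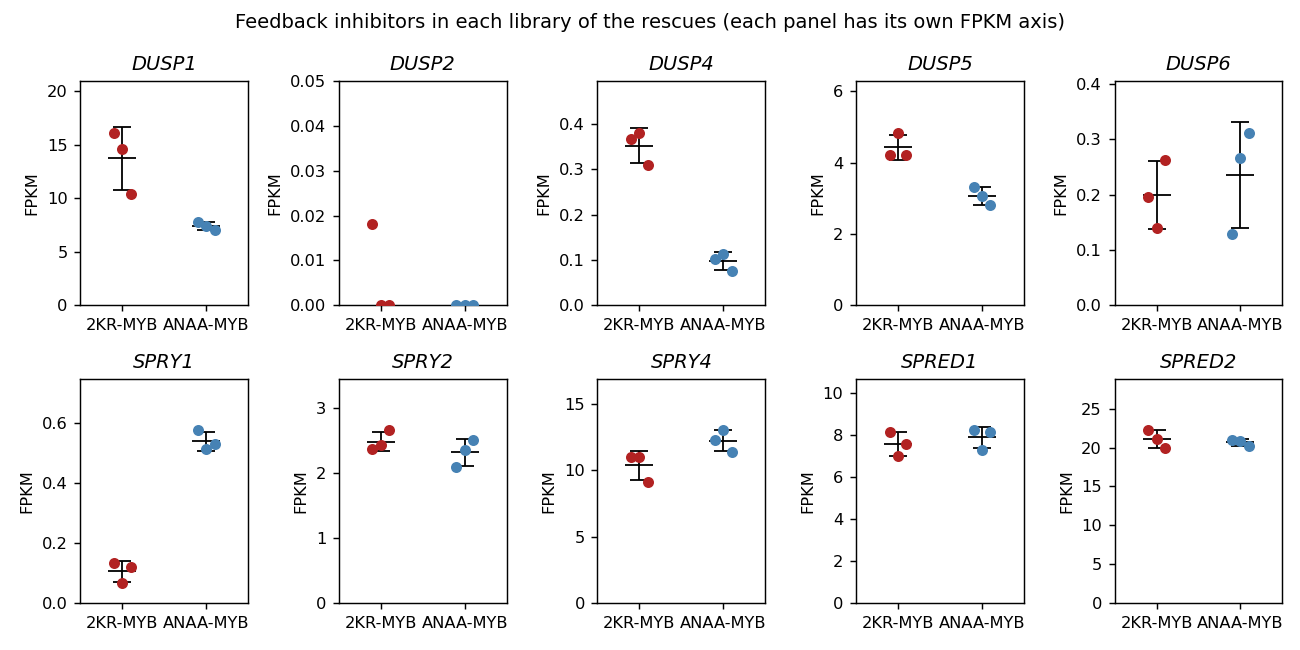
FPKM (vertical axis, from 0, a separate scale for each gene) of the 10 feedback inhibitors in the 3 libraries of the 2KR-MYB rescue (red) and the 3 of the ANAA-MYB rescue (blue), with the mean and SD as black bars except where a library is listed at 0. DUSP1, DUSP4 and DUSP5 lie higher in every 2KR-MYB library, SPRY1 and SPRY4 lie higher in every ANAA-MYB library, and the other 5 overlap. Of all tested genes, 44.9% had libraries that did not overlap between the rescues. DUSP4 and SPRY1 were under the filter and not among them.

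The rescues were compared as the difference in log2(FPKM + 1), positive where 2KR-MYB was higher, and on this scale changes of weakly expressed genes come out too small. Of the 6 tested members, 2 passed the adjusted p of 0.01, DUSP1 and DUSP5, both higher with 2KR-MYB and both phosphatases. Among all tested genes 13.0% passed in either direction, with 5.57% on the side of 2KR-MYB and 7.42% on that of ANAA-MYB. At an adjusted p of 0.05 it was the same 2 members, beside 26.9% of all tested genes. The median log2 fold change of the 6 was 0.049, beside -0.015 over all tested genes. No member passed with 1 library left out, except DUSP1 without the third 2KR-MYB replicate. Every one of these refits, with 5 libraries, also called fewer of all tested genes, between 831 and 1139 in place of 1642.

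DUSP1, the nuclear phosphatase that acts on p38, JNK and ERK and is induced by growth factors and stress, differed most among the tested members (ENSG00000120129). It stood at 16.1, 14.6 and 10.4 FPKM with 2KR-MYB and at 7.74, 7.39 and 7.05 FPKM with ANAA-MYB. The rescues did not overlap, as in 44.9% of all tested genes. The third 2KR-MYB library lay between the other libraries of its rescue and those of ANAA-MYB. The means were 13.7 ± 2.96 and 7.39 ± 0.348 FPKM (SD, n = 3 each), a ratio of 1.86. The log2 fold change was 0.79 (95% interval 0.47 to 1.11, limma adjusted p = 0.0045), which ranked 392 of 12634 in size. With 1 library left out the adjusted p ranged from 0.00039, without the third 2KR-MYB replicate, to 0.022, and with no filter on low values it was 0.031. The spread of DUSP1 between libraries of a rescue, an SD of 0.22 on the log2 scale, was at the percentile 92.7 of all tested genes. An exact two-sided permutation test of 3 against 3 libraries gave p = 0.1, the smallest it can give. The same test gave the same p for DUSP4, DUSP5, SPRY1 and SPRY4.

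The promoter of DUSP1 is known for elements that answer cyclic AMP and growth factor signals, and its sequence is shown because it differed most among the tested members. Promoters were taken from RefSeq (GRCh38.p14) as the 300 bases from 250 before to 50 after the start, and 8 of the 10 members had one, not DUSP4 and DUSP5. The DUSP1 window held 1 full cyclic AMP response element (CRE), TGACGTCA, at -125 to -118, and a TATA box, TATAAA, at -30 to -25, given here on the strand of the gene with the motif in capitals and counted from the start.
DUSP1 CRE, chr5:172771307-172771326, minus strand: ggcgggTGACGTCAccgccc
DUSP1 TATA box, chr5:172771214-172771231, minus strand: gccgcaTATAAAcgcgct
No other member with a window held either motif, and DUSP4 and DUSP5 could not be searched. On either strand the CRE was present in 1.98% of 27305 promoters of the same length and the TATA box in 12.0%. The CArG box, to which the serum response factor binds, was found in none of the 8 members (1.29% of all promoters), nor was the ETS motif CCGGAAG (10.7%). A match is a description of the letters, and no match says nothing of the factor.

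DUSP5 (ENSG00000138166), a nuclear phosphatase specific for ERK, had 4.23, 4.84 and 4.21 FPKM with 2KR-MYB and at 3.31, 3.06 and 2.80 FPKM with ANAA-MYB. The libraries did not overlap, as in 44.9% of all tested genes. The means were 4.43 ± 0.36 and 3.05 ± 0.256 FPKM (SD, n = 3 each), a ratio of 1.45, and the log2 fold change was 0.42 (95% interval 0.22 to 0.62, limma adjusted p = 0.0098). This adjusted p lay just under the threshold. It was 0.011 after quantile normalization, 0.039 with no filter, and between 0.018 and 0.038 with 1 library left out.

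DUSP4 (ENSG00000120875), a nuclear phosphatase of ERK and JNK, was low in both rescues but differed between them, at 0.368, 0.381 and 0.309 FPKM with 2KR-MYB and 0.102, 0.114 and 0.0747 FPKM with ANAA-MYB. The libraries lay apart, with a ratio of means of 3.63. In the fit with no filter, over 28536 genes of which 3.30% passed, the difference was 0.30 on the log2 scale (limma adjusted p = 0.0068). With a pseudocount of 0.1 it was 1.20 (limma adjusted p = 0.021), and without any 1 library the adjusted p was between 0.014 and 0.034. At such levels the depth, unknown from these values, sets the precision. DUSP6 (ENSG00000139318, chromosome 12, 89347235 to 89352501), the cytoplasmic phosphatase of ERK, had 0.195, 0.140 and 0.263 FPKM with 2KR-MYB and 0.128, 0.266 and 0.312 FPKM with ANAA-MYB. Its libraries overlapped, and in the same fit its log2 fold change was -0.041 (95% interval -0.21 to 0.13). DUSP2 (ENSG00000158050, chromosome 2, 96143169 to 96145440), a phosphatase of activated lymphocytes, was at 0.0181 FPKM in the first 2KR-MYB library and listed at 0 in the other 5, so that no fold is given.

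Summed over the 5 phosphatases, the level was 20.9, 20.0 and 15.2 FPKM with 2KR-MYB and 11.3, 10.8 and 10.2 FPKM with ANAA-MYB. The libraries did not overlap, and taken singly neither did those of 44.9% of all tested genes. DUSP1 made up 73.4% of this sum in the 2KR-MYB rescue and 68.6% in the ANAA-MYB rescue, so the sum follows DUSP1.

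Of the Sprouty genes, SPRY2 and SPRY4 were tested and neither passed. SPRY4 (ENSG00000187678, chromosome 5, 142310430 to 142325021), which holds back RAS activation downstream of receptor tyrosine kinases, measured 11.0, 11.0 and 9.12 FPKM with 2KR-MYB and 12.3, 13.0 and 11.4 FPKM with ANAA-MYB. Every ANAA-MYB library was higher, with means of 10.4 ± 1.09 and 12.2 ± 0.778 FPKM (SD, n = 3 each). Of all tested genes, 44.9% likewise had libraries that did not overlap. The log2 fold change of -0.22 (95% interval -0.42 to -0.028) did not pass over all tested genes (limma adjusted p = 0.087). SPRY2 (ENSG00000136158, chromosome 13, 80335976 to 80341126), which also acts below growth factor receptors, had 2.37, 2.42 and 2.65 FPKM with 2KR-MYB and 2.09, 2.35 and 2.50 FPKM with ANAA-MYB. The libraries overlapped, and the log2 fold change was 0.071 (95% interval -0.14 to 0.28, limma adjusted p = 0.59).

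SPRY1 (ENSG00000164056), which acts on the same step, showed the largest ratio of all members at a low level. Its FPKM were 0.132, 0.0660 and 0.119 with 2KR-MYB and at 0.575, 0.512 and 0.529 FPKM with ANAA-MYB. The libraries lay far apart, with means of 0.105 ± 0.0348 and 0.539 ± 0.0326 FPKM (SD, n = 3 each), a level 5.11 times as high with ANAA-MYB. In the fit with no filter the difference was -0.48 on the log2 scale (limma adjusted p = 0.0032), and this scale shrinks differences under 1 FPKM. With a pseudocount of 0.1 it was -1.65 (limma adjusted p = 0.010), and without any 1 library the adjusted p was between 0.018 and 0.020. The direction was thus opposite to that of DUSP1, DUSP4 and DUSP5.

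Matches to the MYB motif AACNG were searched on both strands of the same promoter windows, since the rescues differ in the form of MYB. It occurred in 4 of 8 members, DUSP6, SPRY1, SPRY2 and SPRY4, and in 77.1% of all promoters. The matches of SPRY1, the member with the largest ratio, are shown on the strand of the gene with the motif in capitals, the second being the reverse complement.
SPRY1 at -230 to -226, chr4:123396559-123396575, plus strand: atgacaAACTGcatttg
SPRY1 at -102 to -98, chr4:123396687-123396703, plus strand: gaaatcCTGTTccaggt
The windows of DUSP1, DUSP2, SPRED1 and SPRED2 held no match.

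Among the 6 tested members the SPRED genes gave the narrowest intervals. SPRED2 (ENSG00000198369, chromosome 2, 65307175 to 65432599) measured 22.2, 21.1 and 20.0 FPKM with 2KR-MYB and at 21.0, 20.9 and 20.2 FPKM with ANAA-MYB. Its log2 fold change was 0.026 (95% interval -0.099 to 0.15, limma adjusted p = 0.76). SPRED1 (ENSG00000166068, chromosome 15, 38252836 to 38357249), which brings neurofibromin to the membrane, measured 8.14, 6.97 and 7.57 FPKM with 2KR-MYB and at 8.20, 7.28 and 8.13 FPKM with ANAA-MYB. Its log2 fold change was -0.052 (95% interval -0.23 to 0.13, limma adjusted p = 0.65). The libraries of both genes overlapped between the rescues. The spread of SPRED2 between libraries of a rescue was at the percentile 17.8 of all tested genes and that of SPRED1 at 53.3.

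**Figure D2:**
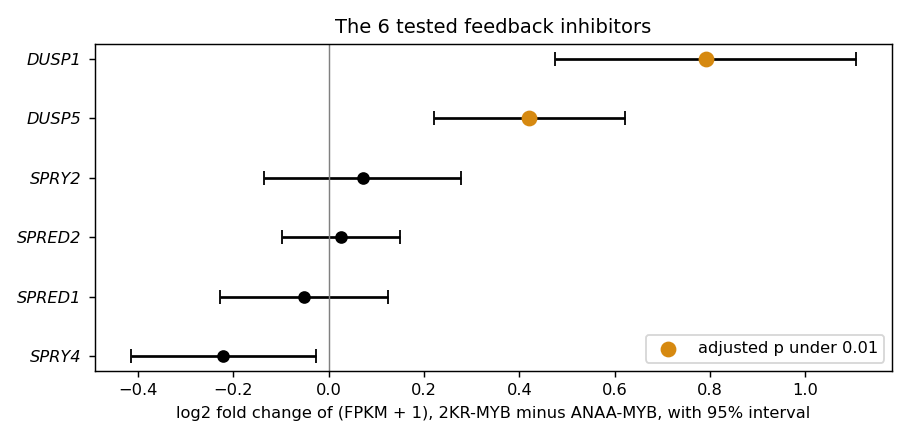
Log2 fold change of (FPKM + 1), 2KR-MYB minus ANAA-MYB rescue (horizontal axis), with 95% intervals from limma, for the 6 tested feedback inhibitors; orange points passed an adjusted p of 0.01. DUSP1 (0.79) and DUSP5 (0.42) lie to the right of 0, SPRED1, SPRED2 and SPRY2 have intervals that include 0, and SPRY4 (-0.22) did not pass.

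Over all 10 members the level was 64.7, 61.6 and 54.7 FPKM with 2KR-MYB and 55.4, 54.9 and 53.0 FPKM with ANAA-MYB. The third 2KR-MYB library lay below the first ANAA-MYB library, so the sums overlapped. SPRED genes contributed 28.7 ± 1.44 and 28.6 ± 0.537 FPKM (SD, n = 3 each) and the Sprouty genes 13.0 ± 0.928 and 15.1 ± 0.710 FPKM. The Sprouty sum was higher in every ANAA-MYB library, while the SPRED sums overlapped.

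**Figure D3:**
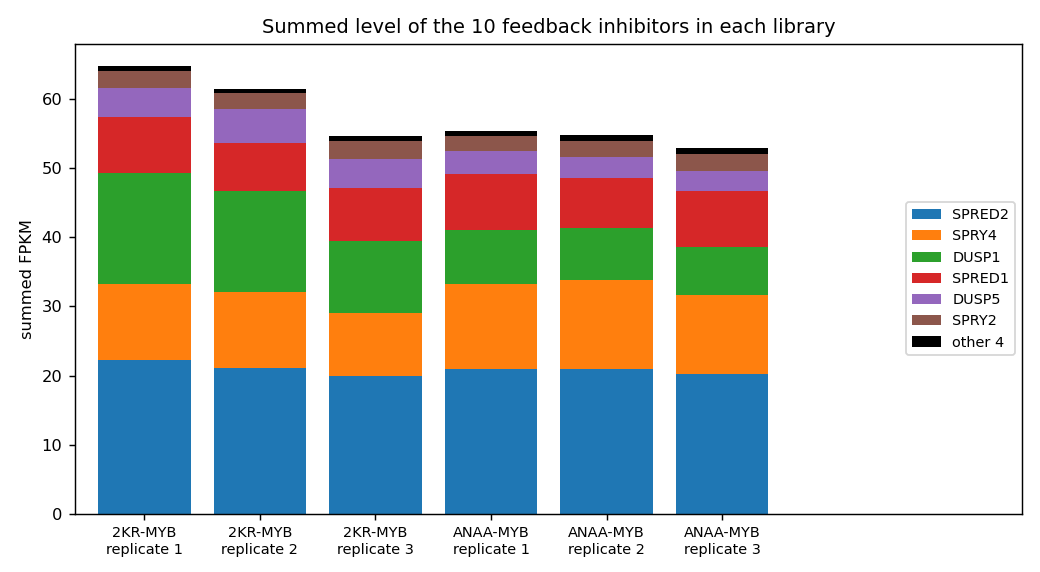
Summed FPKM (vertical axis) of the 10 feedback inhibitors in each of the 6 libraries, stacked by gene, with the 4 genes under 1 FPKM joined in black. The DUSP1 segment is taller in the 2KR-MYB libraries, 10.4 to 16.1 FPKM against 7.05 to 7.74 FPKM, while the SPRED2 segment runs from 20.0 to 22.2 FPKM over all libraries.

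Because each rescue is 1 clone, the chromosomal surroundings of the members were read from the RefSeq positions (GRCh38.p14). For each member the 10 nearest tested genes on either side were taken. Their median log2 fold changes ran from -0.12 around DUSP2 to 0.086 around DUSP5. Around DUSP1 (chromosome 5, 172768096 to 172771195) the median was 0.037, with 2 of 20 genes past the threshold, and around DUSP5 (chromosome 10, 110497907 to 110511533) 1 of 20 passed. The number ran from 0 of 20 around DUSP2 to 4 of 20 around DUSP4 and SPRY4, beside 13.0% of all tested genes. DUSP4 (chromosome 8, 29333064 to 29350684) was higher with 2KR-MYB while 13 of its 20 neighbours were lower, with a median of -0.11. SPRY1 (chromosome 4, 123396795 to 123403760) was lower with 2KR-MYB while 16 of its 20 neighbours were higher, with a median of 0.067. Around DUSP1 11 of 20 neighbours were higher with 2KR-MYB, as was the member, and around DUSP5 also 11 of 20. The median over all tested genes was -0.015. The part of a regional difference between the clones was not tested.

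The other genes of the pathway were taken from 6 lists with 94 genes, of which 81 were tested and 10 passed, 5 in each direction (12.3%, beside 13.0% of all tested genes). Among 10 other dual-specificity phosphatases, all of them tested, 1 was higher with 2KR-MYB and 2 with ANAA-MYB (30.0%, beside 13.0% of all tested genes). Their median log2 fold change was 0.14. With 1 library left out, between 0 and 2 genes of this list passed. The atypical phosphatase DUSP22 rose from 8.58 ± 0.186 FPKM with ANAA-MYB to 12.3 ± 0.887 FPKM with 2KR-MYB (SD, n = 3 each, limma adjusted p = 0.0019). DUSP10, which acts on JNK and p38, went the other way, at 6.80, 6.44 and 5.78 FPKM with 2KR-MYB and 9.37, 8.85 and 8.63 FPKM with ANAA-MYB (limma adjusted p = 0.0039). DUSP9, a phosphatase of ERK, was at 0.963 ± 0.108 and 1.92 ± 0.0989 FPKM (SD, n = 3 each, limma adjusted p = 0.0044). The mean of DUSP9 was under 1 FPKM with 2KR-MYB, so it passed the filter only through the ANAA-MYB rescue, while DUSP22 and DUSP10 were above 1 FPKM in every library. Of 11 tested JNK and p38 pathway genes 1 passed (9.09%, beside 13.0% of all tested genes). It was MAPK12, a p38 kinase, with a log2 fold change of -0.34.

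Among 12 tested inhibitors of RAS and ERK signalling other than the members, 2 were higher with 2KR-MYB and 1 with ANAA-MYB. This was 25.0%, beside 13.0% of all tested genes, and the median log2 fold change was 0.075. Between 1 and 2 of the 12 passed with 1 library left out. The ubiquitin ligases CBL and CBLB, which mark receptors for destruction, had log2 fold changes of 0.32 and 0.38, and the adaptor DOK1, which recruits a RAS inhibitor, one of -0.43. From receptors to ERK, 1 of 25 tested genes passed (4.0%, beside 13.0% of all tested genes). This was KIT, the receptor of stem cell factor, at 7.19, 6.35 and 6.89 FPKM with 2KR-MYB and 3.93, 3.70 and 2.94 FPKM with ANAA-MYB (limma adjusted p = 0.0010). The median of this list was -0.014.

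Of 15 tested transcripts that ERK is known to raise, 1 passed in each direction, with a median of 0.040. With 1 library left out, 1 gene of this list passed, except that 4 did without the third 2KR-MYB replicate. EGR1, an early response transcription factor, stood at 9.56, 12.0 and 8.98 FPKM with 2KR-MYB and at 6.19, 6.86 and 6.81 FPKM with ANAA-MYB (log2 fold change 0.54, limma adjusted p = 0.0063). CCND1, the cyclin that drives entry into the cell cycle, had 0.586, 0.409 and 0.378 FPKM with 2KR-MYB and at 2.97, 3.20 and 3.08 FPKM with ANAA-MYB (log2 fold change -1.49, limma adjusted p = 7.6e-05). CCND1 was under 1 FPKM in every 2KR-MYB library, so it passed the filter only through the ANAA-MYB rescue, and the share past the threshold in this list was 13.3%, beside 13.0% of all tested genes. Proteins that bind AU-rich elements between them shorten or lengthen the life of transcripts or act on their translation. None of the 8 in the list passed the limma threshold of 0.01, beside 13.0% of all tested genes. At 0.05 it was 1, beside 26.9% of all tested genes. The number at an unadjusted p under 0.05 was 1, and the median was 0.019.

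**Figure D4:**
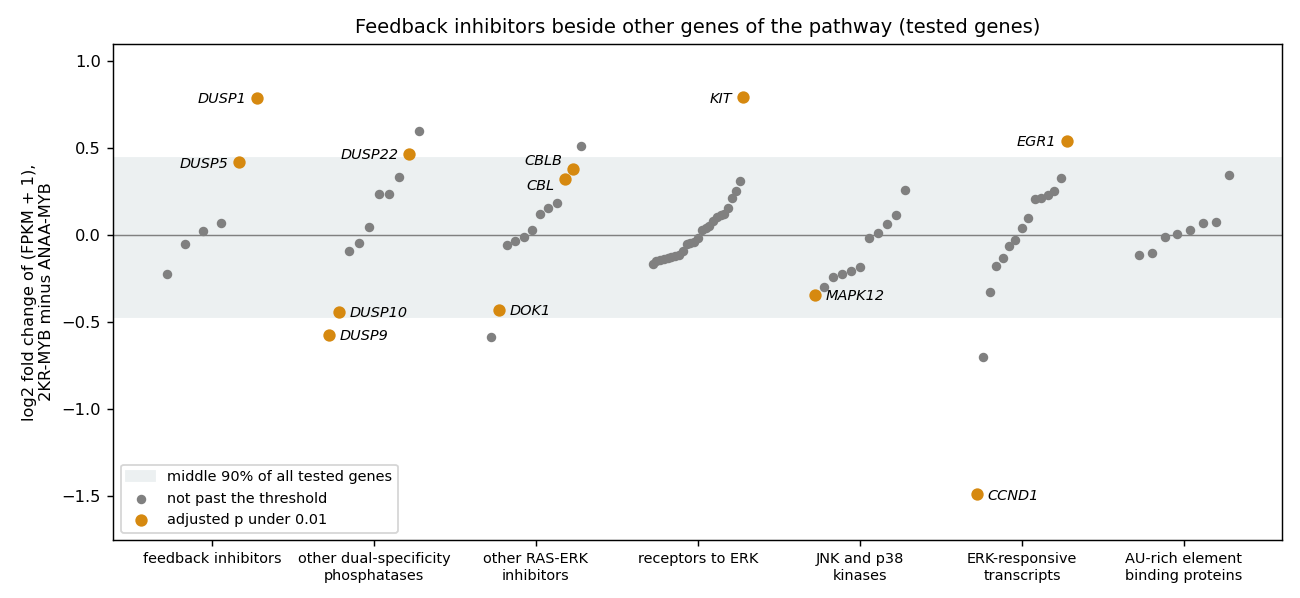
Log2 fold change of (FPKM + 1), 2KR-MYB minus ANAA-MYB rescue (vertical axis), of each tested gene in the feedback inhibitors and 6 other lists, ordered within each list. Orange points passed an adjusted p of 0.01 and are named, grey points did not, and the band holds the middle 90% of all tested genes. Named genes lie on both sides of 0, 7 above it and 5 below.

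As a description over the 6 libraries, the tested genes whose log2(FPKM + 1) followed that of DUSP1 most closely were IL7R, PPP2R5B and PARD6B, with Pearson r between 0.997 and 0.998. IL7R, the interleukin-7 receptor, ran from 1.97 to 4.86 FPKM with 2KR-MYB and from 0.559 to 0.678 FPKM with ANAA-MYB, with the third 2KR-MYB library lowest of its rescue as for DUSP1. It was under 1 FPKM in every ANAA-MYB library, so it passed the filter only through the 2KR-MYB rescue. In all, 170 tested genes had an r of at least 0.95 with DUSP1, and 7 had one with SPRED2, of which DEDD, TUBB2B and BPHL were closest (r of 0.963 to 0.978). The points share 6 libraries of 2 clones, so a difference between the clones enters every r.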

How the data were processed

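RNA was taken 24 h after transfection from K562 clones of the 2KR-MYB and ANAA-MYB rescues, with 3 libraries each. Poly(A) RNA was made into strand-specific libraries and sequenced in 150 bp pairs. Per the labels the authors used bcl2fastq 2.18.0.12, Trimmomatic 0.36, TopHat2 2.1.1 on GRCh38, Cufflinks and Cuffdiff 2.2.1, and they deposited FPKM per gene and replicate. For annotation and library scaling, the choice is not given in the sources used here. The depth could not be read from the FPKM table, and reads were not used here: among values under 0.5 FPKM at most 7.4% of ratios between libraries fell within 1% of 1 value, so no reads were recovered. The 12 other per-sample columns were left unused, and control, knockdown and WT-MYB libraries are not analysed here.

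The 12634 genes averaging 1 FPKM or more entered limma 3.58.1 (R 4.3.3) as log2(FPKM + 1) (empirical Bayes with trend, Benjamini-Hochberg over all tested genes, adjusted p under 0.01 as in the paper). A table of gene names gave a symbol for 55854 IDs, and RefSeq (GRCh38.p14) a position for 11541 tested genes. Figures were drawn with matplotlib 3.10.9 in Python 3.11.15. The script was tested on simulated data. Alternatives were pseudocounts of 0.1 and 0.01, quantile normalization, upper quartile scaling, no filter, a filter at a mean of 5 FPKM, a replicate block, a robust prior, each library left out, and a threshold of 0.05. Fits of members under 1 FPKM with no filter and another pseudocount, scaling or library left out, and the TATA motif, were added after the data were seen. Named are the 10 members, MYB, genes past the threshold in each other list (at most 6), and the 3 genes most like the member of highest level and of largest change. The members and lists were chosen with earlier results of these data known.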

Additional observations from a re-analysis of the deposited data

How the results depend on the processing

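The log2 fold changes of DUSP1, DUSP5, SPRY2, SPRY4 and SPRED1 kept their sign under every alternative run, and SPRED2 changed sign only without the first 2KR-MYB replicate. Leaving out 1 library in turn gave ranges of 0.67 to 0.96 for DUSP1, 0.37 to 0.47 for DUSP5 and -0.0084 to 0.061 for SPRED2. With no filter DUSP1 (0.79) and DUSP5 (0.42) missed the threshold, and DUSP5 also missed it after quantile normalization (0.40). The adjusted p from limma ran from 0.00039 to 0.031 for DUSP1 and from 0.0077 to 0.039 for DUSP5 over all alternatives. The number of members past the threshold was 1 with the filter raised to a mean of 5 FPKM, where DUSP5 and SPRY2 were not tested, 1 after quantile normalization and between 0 and 1 with 1 library left out. With no filter it was 2, beside 3.30% of the 28536 genes in that fit, but these were DUSP4 and SPRY1. Both were under 1 FPKM in every library. In that fit DUSP4 missed the threshold at a pseudocount of 0.1 (1.20) and ran from 0.29 to 0.33 with 1 library left out, SPRY1 likewise (-1.65, and -0.49 to -0.45), and DUSP6 ran from -0.11 to 0.0038. The genes past the threshold over all tested genes numbered 942 with no filter, 3402 at a threshold of 0.05 and between 831 and 1139 with 1 library left out. Upper quartile scaling put 54.6% of the genes past the threshold on the side of 2KR-MYB, in place of 42.9%, but moved the median of all genes by under 0.1. In the other lists together the number was 5 with no filter, 28 at a threshold of 0.05 and between 3 and 11 with 1 library left out. The causes of these changes were not tested.

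The replicate numbers did not pair the libraries: deviations of same-numbered libraries from their rescue means had correlations of -0.052, -0.035 and -0.003 across genes, and 0 of the 3 2KR-MYB libraries correlated best with its own number. With the replicate number as a block 1089 genes passed, 5 of the other lists and 1 member, DUSP1, while DUSP5 kept its log2 fold change of 0.42 at an adjusted p of 0.023.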
